A study of Mus musculus with 6 samples.

Results

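The muscle ankyrin repeat proteins are a small family encoded by Ankrd1, Ankrd2 and Ankrd23. Each carries a stack of ankyrin repeats, the part that holds on to other proteins, and each binds titin, the giant spring of the sarcomere, in the N2A segment of its elastic I-band. The proteins are found at the I-band and in the nucleus, and in mouse muscle Ankrd1 and Ankrd2 are known for responding to stretch, injury and denervation. Ankrd1 is also called cardiac ankyrin repeat protein, Ankrd2 is the member linked to slow fibres, and Ankrd23 is the member first described in relation to diabetes.

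Illumina bead arrays, 1 per mouse, gave the family's transcript levels in the quadriceps (thigh) muscle of newborn C57BL/6 mice, 0 days of age. There were 3 Klhl40 knockout mice (KO) and 3 wild-type mice (WT), killed as littermate pairs. Arrays of the same number were taken as pairs, a match that their titles do not state. Klhl40 is a muscle kelch protein that stabilises thin filament proteins, and the early age was picked so that poor feeding would affect the genes less. The labels do not say how the knockout allele was made or which part of Klhl40 it lacks. All probes annotated to the 3 genes were taken, 4 of 45281: 2 for Ankrd1 and 1 each for Ankrd2 and Ankrd23. The 3 genes are 3 of 13455 tested. The family was selected on the KO and WT values of these same arrays, among which Ankrd2 and Ankrd1 stood out, so its differences are given below as a description, without a test.

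Levels are log2 normalised intensities and differences are KO minus WT on that scale, so that 1 is a doubling. Klhl40 itself was at 4.79, 5.72 and 4.46 on KO 1, KO 2 and KO 3, against 10.63, 10.77 and 10.76 on WT 1, WT 2 and WT 3. It was detected above the array's negative controls (detection p under 0.05) on KO 2 among the KO arrays and on every WT array. Of the 9 skeletal muscle fibre markers with a probe, all 9 were detected on all 6 arrays. Their summed scanner intensity was 192505 to 198601 in KO and 194254 to 201073 in WT. The sum mostly reflects the brightest probes, such as Myh8. The Myh8 level of 15.23 on every array comes after quantile normalisation, which sets equal ranks to equal levels, so that evenness is no check. Among dimmer markers, Mb was at 9.03 to 9.54 in KO and 8.63 to 9.02 in WT, and Tnnt3 at 13.77 to 13.88 and 13.87 to 14.04. The median difference of the 9 was 0.03, and equal fibre content was not tested. The array WT 3 stood apart in fat cell markers, with a summed intensity of 6281 against 1131 to 1975 on the other 5 arrays. The family's differences and the correlations within genotypes are therefore also given without it. The tissue is a mixture, in which a change in the number of cells of a type and a change in RNA per cell cannot be told apart.

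Ankrd2 had the largest positive difference of all 13455 genes. Its level was 12.00 on KO 1, 11.85 on KO 2 and 12.18 on KO 3, against 9.04 on WT 1, 9.37 on WT 2 and 8.54 on WT 3. The KO arrays lay close together, the WT arrays were more spread, and the nearest KO and WT arrays were 2.48 apart. The means were 12.01 ± 0.17 in KO and 8.98 ± 0.42 in WT (SD, n = 3 each), a difference of 3.03 (SE 0.21) or 8.16-fold. On the scanner's scale the mean intensity was 4268 ± 649 in KO and 617.8 ± 136 in WT (SD, n = 3 each), a ratio of 6.91 before background was removed. Without WT 3, the lowest array, the difference was 2.81. Ankrd2 was the single gene with a difference over 2, and 30 genes had a difference over 1.

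Ankrd1 was represented by 2 probes, and both were higher on every KO array than on any WT array. The leading probe, the brighter one, gave 10.87, 10.66 and 10.45 on KO 1 to KO 3, against 8.86, 9.07 and 8.66 on WT 1 to WT 3. Its means were 10.66 ± 0.21 in KO and 8.86 ± 0.21 in WT (SD, n = 3 each), a difference of 1.80 (SE 0.15) or 3.48-fold, the third highest of all genes. The second probe gave 9.27, 9.09 and 9.04 on the KO arrays, against 7.01, 7.43 and 7.13 on the WT arrays. Its difference was 1.95 (SE 0.14), so the 2 probes differed in size by about their standard errors. The scanner intensity of the leading probe averaged 1710 ± 225 in KO and 565.3 ± 58.6 in WT (SD, n = 3 each). Without WT 3 the leading probe had a difference of 1.70.

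Ankrd23 had the smallest difference of the family. Its level was 9.03 on KO 1, 8.44 on KO 2 and 8.73 on KO 3, against 8.10 on WT 1, 8.33 on WT 2 and 7.74 on WT 3. The groups did not overlap, but the lowest KO array and the highest WT array, which form pair 2, were only 0.11 apart. The means were 8.74 ± 0.30 in KO and 8.05 ± 0.30 in WT (SD, n = 3 each), a difference of 0.68 (SE 0.20) or 1.60-fold. It ranked 80 among all genes, and without WT 3 the difference was 0.52. All 3 genes thus had every KO array above every WT array, which held for 6.93% of all genes tested. As the family was chosen from this contrast, nothing is read from that count.

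**Figure D1:**
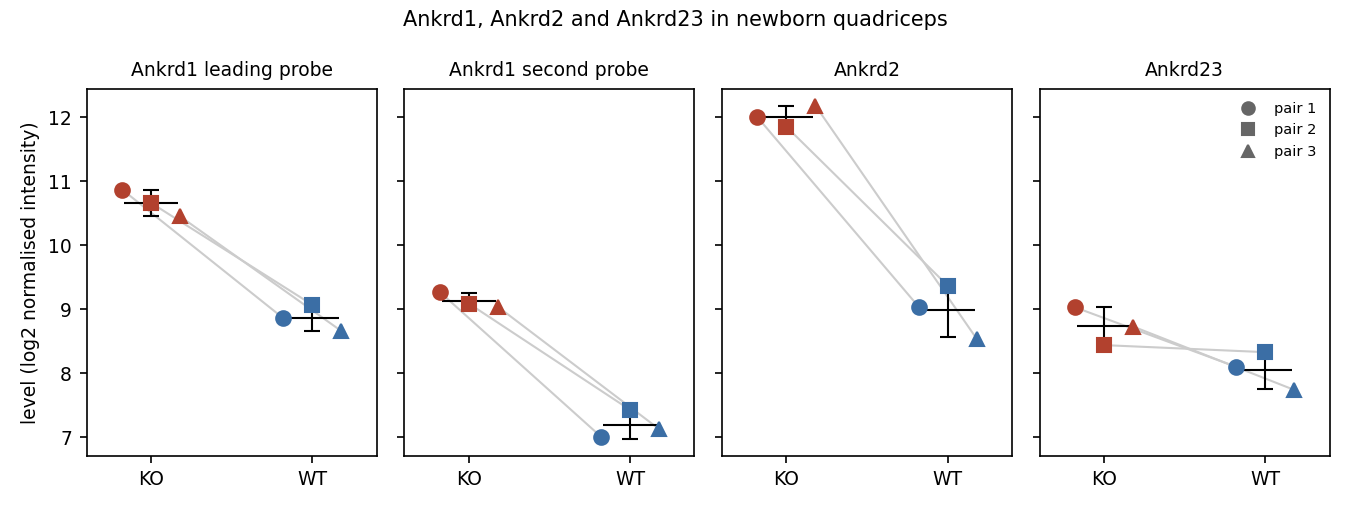
Level (log2 normalised intensity) of the 4 probes on each array, KO on the left and WT on the right. Symbols and grey lines mark arrays of the same number, taken as pairs 1 to 3, and black bars are the mean ± SD (n = 3 each). Ankrd2 shows the widest gap between the groups, and in Ankrd23 the line of pair 2 is almost flat.

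The pairs taken by number showed how evenly the difference was shared. In Ankrd2 the KO array exceeded the WT array by 2.96 in pair 1, 2.48 in pair 2 and 3.64 in pair 3. In the leading Ankrd1 probe the pair differences were 2.01, 1.59 and 1.80, and in the second probe 2.27, 1.66 and 1.91. In Ankrd23 they were 0.94, 0.11 and 0.99. Pair 2 had the smallest difference for every probe of the family. In pair 2 the Ankrd23 scanner intensities were 415.4 on KO 2 and 410.3 on WT 2, with bead standard errors of 15.9 and 15.1, so this pair was not distinguishable beyond the error of the beads.

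The bead arrays carry many beads per probe, which gives a technical error for each value that the choice of the family did not use. Between 24 and 51 beads stood behind each family value. The standard error of the beads was 2.81% to 4.01% of the intensity for Ankrd2, 3.32% to 5.89% for Ankrd23, 3.87% to 7.89% for the leading Ankrd1 probe and 2.84% to 4.87% for the second. The spread between mice of 1 genotype was larger: the coefficient of variation for Ankrd2 was 15.2% in KO and 21.9% in WT, and for Ankrd23 18.6% in KO and 11.9% in WT. For the leading Ankrd1 probe it was 13.1% in KO and 10.4% in WT. All 4 probes were detected on all 6 arrays.

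Within a genotype the order of the mice was compared between the genes. Among WT mice, WT 2 was the highest and WT 3 the lowest in Ankrd1 (leading probe), Ankrd2 and Ankrd23 alike. In the second Ankrd1 probe WT 2 was also the highest, but WT 1 was the lowest. Among KO mice the order was not shared. KO 1 was the highest in both Ankrd1 probes and in Ankrd23, but KO 3 was the highest in Ankrd2. KO 3 was the lowest in both Ankrd1 probes, and KO 2 was the lowest in Ankrd2 and Ankrd23. With each genotype's mean removed, Ankrd2 and Ankrd23 correlated by r = 0.77 over the 6 arrays and by 0.55 over the 5 arrays without WT 3. For the leading Ankrd1 probe and Ankrd23, r was 0.75 over 6 arrays and 0.58 over 5. For the leading Ankrd1 probe and Ankrd2 it was 0.51 over 6 arrays but -0.01 over 5, so that value rested on WT 3. The second Ankrd1 probe did not show that dependence: with Ankrd2 it had 0.44 over 6 arrays and 0.53 over 5. With Ankrd23 the second probe had 0.63 over 6 arrays and 0.67 over 5. The 2 Ankrd1 probes, which measure 1 gene, correlated by 0.76 over 6 arrays and 0.82 over 5. These values are descriptions of few arrays, and no test was made.

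**Figure D2:**
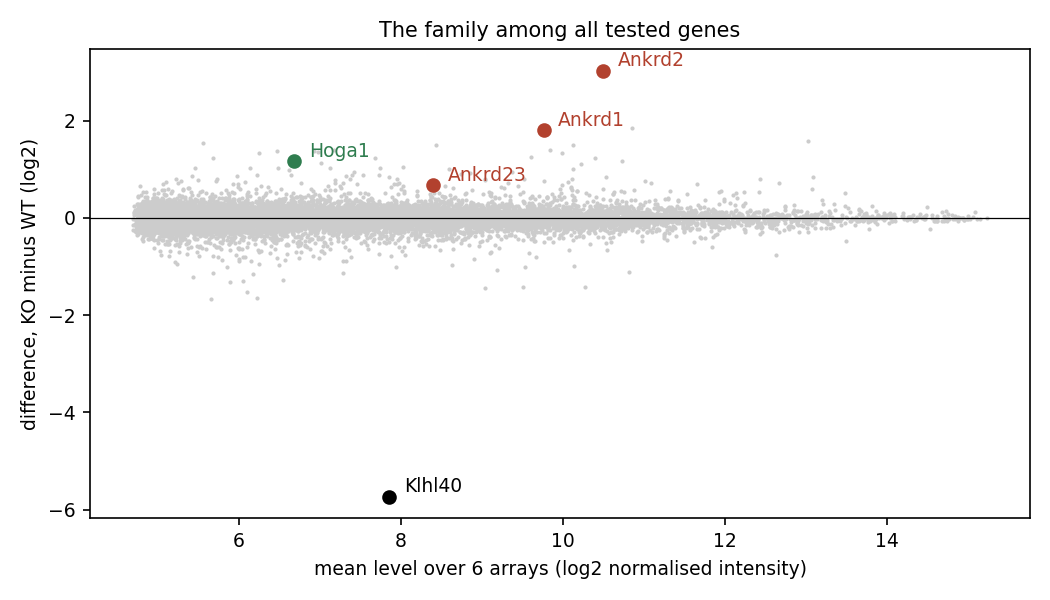
Difference (KO minus WT, log2) against the mean level over 6 arrays (log2 normalised intensity) for all 13455 tested genes (grey). Ankrd2 at 3.03 and Ankrd1 at 1.80 lie above nearly all other genes, Ankrd23 at 0.68 lies at the upper edge, Hoga1 at 1.17 is the gene next to Ankrd2, and Klhl40 at -5.73 is the knocked-out gene.

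The DNA before each start site was examined for the motifs of factors that act in muscle, because Ankrd1 and Ankrd2 were both higher in KO. Ankrd1 is a widely used target gene of the co-activators Yap and Taz, which act through TEAD factors. The sequences below, from RefSeq (GRCm38.p6), lie before the first annotated base of each gene, and capitals mark the TEAD hexamer CATTCC (or its reverse complement GGAATG) and the E-box CANNTG, the core letters bound by MyoD and myogenin. They are shown because they differ in which of these motifs they hold.
Ankrd1, chr19:36119845-36120094, minus strand: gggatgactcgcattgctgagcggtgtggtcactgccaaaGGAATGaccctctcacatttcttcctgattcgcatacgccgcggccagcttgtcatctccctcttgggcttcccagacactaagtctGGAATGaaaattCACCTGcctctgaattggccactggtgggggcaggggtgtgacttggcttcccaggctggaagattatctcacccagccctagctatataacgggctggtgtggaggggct
Ankrd2, chr19:42035777-42035916, plus strand: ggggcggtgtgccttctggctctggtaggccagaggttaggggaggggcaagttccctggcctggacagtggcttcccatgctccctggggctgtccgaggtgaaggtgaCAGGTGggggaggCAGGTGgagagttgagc

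In the 250 bases before its start, Ankrd1 held the TEAD hexamer at 2 places, whose first bases lie at -210 and -123 from the start, and 1 E-box at -111. For Ankrd2 the RefSeq table of promoters sets the start 110 bases inside the annotated gene, so that 140 of the 250 bases lie before the gene and are printed. That window held no TEAD hexamer but 3 E-boxes. The E-boxes in capitals begin at -30 and -17 from the first annotated base, which is -140 and -127 from the table's start. The third E-box, at -96 from the table's start, and a TATA box (TATAAA, either strand) at -29 lie inside the annotated gene and are not printed. Of 32851 windows of this length before RefSeq start sites, 12.6% held the TEAD hexamer on either strand, 1.02% held it at 2 or more places, 66.2% held an E-box, 12.2% held 3 or more and 12.4% held the TATA box. Ankrd23 has 2 annotated starts. The window of the upstream start held neither motif, and that of the downstream start, which lies inside the annotated gene, held the TEAD hexamer at -120 and E-boxes at -202 and -75 from that start. No CArG box, the site of serum response factor, and no MEF2 site was found in the 4 windows of the family, against 1.47% and 2.92% of all windows. The motifs did not overlap each other in the family's windows. A match is a description of the letters, and binding was not measured.

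The genes of the Yap and Tead pathway and the other factors tied to these promoters were measured on the same arrays, where detected. Tead3, Lats1, Lats2 and Ajuba had a probe but were below the detection rule. So were the upstream factors Myf5, Mef2d, Mrtfa, Mrtfb, Gata4 and Nkx2-5. Of 17 Yap and Tead genes tested, 0 were higher and 0 lower in KO by limma at an adjusted p under 0.05, their median difference was -0.03, and 2 had an unadjusted p under 0.05. The co-activator genes Yap1 and Wwtr1 (Taz) had differences of 0.05 and -0.17. The 2 genes with the smallest p were Vgll2, a muscle partner of TEAD factors, at 0.54 (SE 0.13, limma adjusted p = 0.320), and Tead1, at 0.24 (SE 0.10, limma adjusted p = 0.663). The Yap target genes Ccn1 and Ccn2 had 0.66 (SE 0.36) and 0.23 (SE 0.23), with KO and WT arrays that overlapped. Of the other targets listed, Amotl2 had 0.01, Crim1 0.01 and Axl -0.03. Arhgap29 and Ptpn14 had -0.23 (SE 0.10) and -0.22 (SE 0.11). Of the 17 genes, 3 had every KO array below every WT array, among them Arhgap29 and Ptpn14. Another 2, Vgll2 and Tead1, had every KO array above every WT array, beside 6.93% of all genes. The share of all genes with every KO array below was not counted here. Of 10 upstream factors tested, 0 passed in either direction, with a median difference of 0.00 and 1 at an unadjusted p under 0.05. Myog, the myogenic factor myogenin, had 0.41 (SE 0.10, limma adjusted p = 0.318) and Myf6 0.36 (SE 0.16, limma adjusted p = 0.698). Myod1 had 0.06 and the serum response factor gene Srf -0.18. By comparison 0.111% of all genes were called higher and 0.0372% lower, 7.27% had an unadjusted p under 0.05 in either direction, and the median difference of all genes was 0.00.

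Genes of the proteins that hold the family in the sarcomere or bind it elsewhere had differences of -0.10 to 0.58. Of 9 binding partners tested, 0 passed in either direction, their median difference was 0.13, and 3 had an unadjusted p under 0.05, beside 7.27% of all genes. Titin (Ttn) had 0.03 (SE 0.10), and Mypn, which encodes myopalladin, the Z-disc and I-band protein that binds Ankrd1, had 0.25 (SE 0.10). Capn3, the titin-bound calpain of the N2A segment, had 0.33 (SE 0.20), with 7.44, 7.20 and 7.48 on the KO arrays and 7.11, 7.42 and 6.60 on the WT arrays. Tcap, the titin cap protein of the Z-disc that binds Ankrd2, had 0.58 (SE 0.11, limma adjusted p = 0.168) and levels of 13.23, 13.36 and 13.50 on the KO arrays, against 12.71, 12.76 and 12.87 on the WT arrays. The Tcap groups did not overlap, and the desmin gene Des had 0.25 (SE 0.09, limma adjusted p = 0.617). Ybx1, a partner of Ankrd1 in the nucleus, had -0.08 (SE 0.09).

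The 13 tested genes known to respond to load or stress in muscle come from a list drawn up with earlier results of these arrays known. Nppa and Nppb were also on that list and had a probe, but they were below the detection rule. By limma 4 rose and 0 fell, beside 0.111% of all genes called higher and 0.0372% lower. The other 9 did not pass. Of the 13 differences 12 were positive, beside 49.3% of those of all genes, and the median was 0.56. Csrp3, a LIM domain protein of the Z-disc that binds Tcap, rose by 1.57 (SE 0.19, limma adjusted p = 0.0357). Hspb7, a small heat shock protein, rose by 1.50 (SE 0.12, limma adjusted p = 0.00929), and Tnfrsf12a, the TWEAK receptor, by 1.40 (SE 0.14, limma adjusted p = 0.0229). Xirp2, an actin-binding protein, rose by 1.24 (SE 0.14, limma adjusted p = 0.0324). With the pairs as a block Xirp2 had a limma adjusted p of 0.0603 (0.00691 to 0.169 across the alternatives). Every KO array lay above every WT array for 10 of the 13, beside the 6.93% of all genes. As the list was drawn up with results of these arrays known, nothing is read from its counts. The list held 0 called genes without KO 1, KO 2 or WT 1, 1 without KO 3 and 2 without WT 2. Without WT 3 the same count of 4 was called, and the difference of Csrp3 was 1.36. The Csrp3 levels on the WT arrays were 12.31, 12.58 and 11.81, with WT 2 highest and WT 3 lowest, and those of Tnfrsf12a were 8.88, 9.20 and 9.34.

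**Figure D3:**
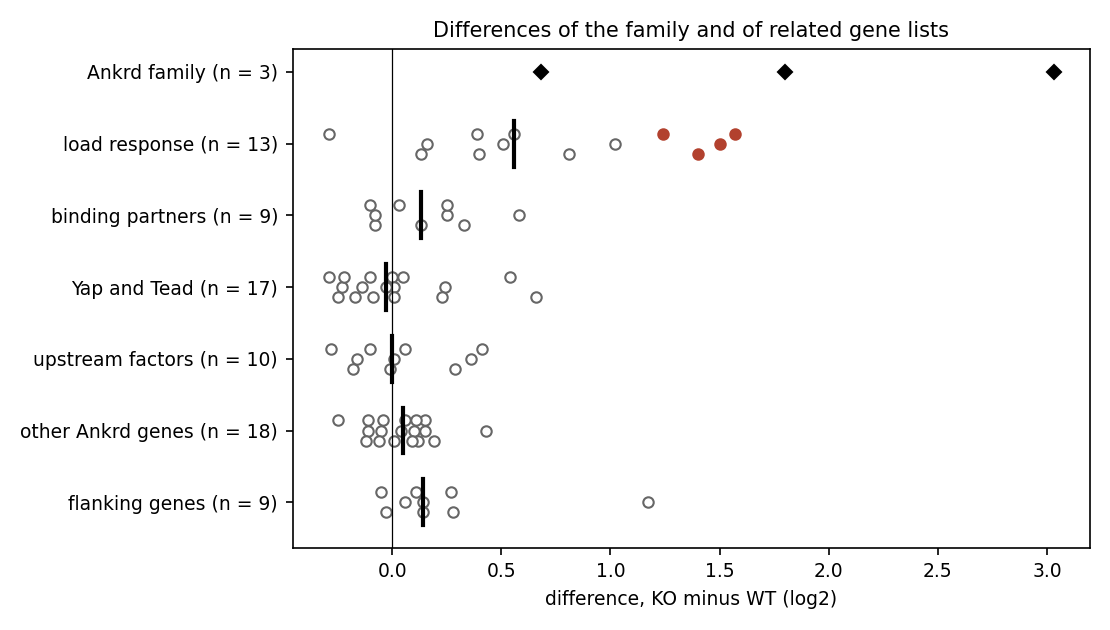
Difference (KO minus WT, log2) of each tested gene of the family (black diamonds) and of 6 gene groups (circles, red where limma called the gene, with a black line at the median). Ankrd1 and Ankrd2 at 1.80 and 3.03 lie above every gene of the other groups, Ankrd23 lies at 0.68, 4 load response genes are called, and the single flanking gene at 1.17 is Hoga1.

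Other genes with ankyrin repeats were compared in the same way. Of 18 other genes with an Ankrd symbol that could be tested, 0 passed in either direction and 1 had an unadjusted p under 0.05, beside 7.27% of all genes. Their differences ran from -0.25 to 0.43, with a median of 0.05. The extremes were Ankrd61 at 0.43 (SE 0.13, limma adjusted p = 0.484), with levels of 5.37 to 5.67 in KO and 4.94 to 5.23 in WT close to background, and Ankrd11, a chromatin regulator, at -0.25 (SE 0.15, limma adjusted p = 0.808). Another 23 such genes were below the detection rule.

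The genes next to the family on the chromosomes were examined on the same arrays. Ankrd1 (chr19:36111965-36119844) and Ankrd2 (chr19:42035917-42045111) lie on one chromosome, and Ankrd23 (chr1:36530193-36536556) on another (GRCm38.p6). The 2 nearest genes with a probe on each side gave 12 neighbours, of which 9 were tested and 0 passed in either direction, with 2 at an unadjusted p under 0.05 (7.27% of all genes). Beside Ankrd1, Rpp30 had 0.14, Pcgf5, a Polycomb gene, 0.28 (SE 0.10, limma adjusted p = 0.596) and Hectd2 0.14. Beside Ankrd23, Cnnm3 had 0.27 and Ankrd39 0.11, and both were below 0 without KO 1, at -0.09 and -0.16. Beside Ankrd2, Ubtd1 had -0.05, Mms19 -0.03 and 4933411K16Rik 0.06.

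Hoga1, the gene directly after Ankrd2, had the largest difference of these neighbours. Hoga1 encodes a mitochondrial aldolase of hydroxyproline breakdown, known from the liver and kidney, and its annotation starts 0.448 kb beyond the end of Ankrd2 on the same (plus) strand. Its brighter probe gave 7.33, 7.56 and 6.92 on KO 1 to KO 3, against 6.37, 6.52 and 5.39 on WT 1 to WT 3. The groups did not overlap, and the difference of 1.17 (SE 0.30) ranked 19 among all genes, but it did not pass (limma adjusted p = 0.369), and it was 0.82 without WT 3. Its dimmer probe gave 6.77, 6.86 and 6.87 on the KO arrays, against 5.57, 5.66 and 5.11 on the WT arrays. When the dimmer probe stood for each gene, the difference was 1.39 (SE 0.15, limma adjusted p = 0.0248). Across all alternatives the adjusted p of Hoga1 ran from 0.0248 to 0.951. With the pairs as a block the brighter probe had a limma adjusted p of 0.0504. Both probes were detected on all 6 arrays at low scanner intensities, 197 to 264 in KO and 126 to 181 in WT, and without background correction the difference of the brighter probe was 0.61. With genotype means removed, Hoga1 correlated with Ankrd2 by r = 0.62 (brighter probe) and 0.89 (dimmer probe) over the 6 arrays, but by -0.52 and 0.51 over the 5 arrays without WT 3. The position of the probes along the transcript was not analysed here.

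**Figure D4:**
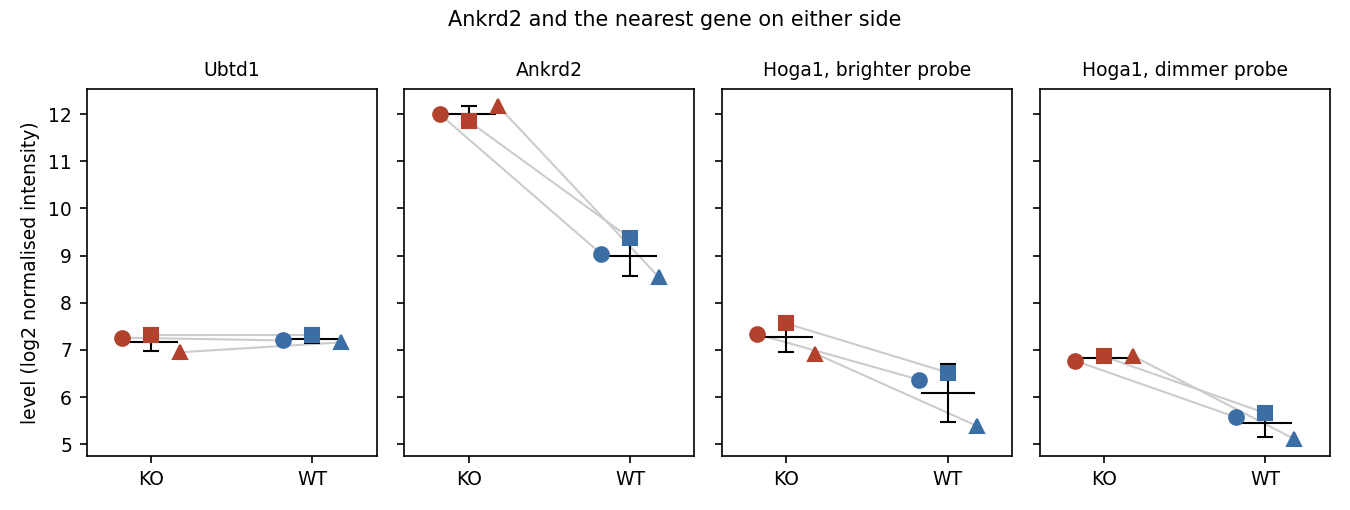
Level (log2 normalised intensity) of Ubtd1, Ankrd2 and both Hoga1 probes, in their order along the chromosome, KO on the left and WT on the right. Arrays of the same number, taken as pairs, are joined (circle pair 1, square pair 2, triangle pair 3). Black bars are the mean ± SD (n = 3 each). Ubtd1 overlaps between the groups, whereas Ankrd2 and both Hoga1 probes have every KO array above every WT array.

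The genes whose levels followed each family member most closely over the 6 arrays were picked from 9413 named genes detected on every array. For Ankrd2 they were Nrap, the nebulin-related anchoring protein of the myotendinous junction (r = 0.9954), Otulin, a linear ubiquitin deubiquitinase (r = 0.9949), and Csrp3 (r = 0.9914). Nrap differed by 0.81 (SE 0.11, limma adjusted p = 0.0529, 0.00638 to 0.939 across the alternatives), and its dimmer probe had 0.17. Otulin rose by 1.10 (SE 0.11, limma adjusted p = 0.0276, 0.00489 to 0.169 across the alternatives), but it did not pass with no filter or in 5 of 6 fits that left out 1 array. For Ankrd1 they were Itga9, an integrin subunit (r = 0.9962), Gdnf, a neurotrophic factor (r = 0.9939), and Mettl2 (r = 0.9935), with differences of 0.56, 0.66 and 0.29. For Ankrd23 they were Cep112 (r = 0.9933), Scube2 (r = 0.9891) and Eif2ak1 (r = 0.9832), with differences of 0.24, 0.57 and 0.22. These correlations contain the genotype difference and also the deviations within genotypes, so the genes were picked in part by those deviations. The values within genotypes below are therefore set in part by that choice and are no separate check. Of the 9413 genes, 74 reached r over 0.95 with Ankrd2, 63 with Ankrd1 and 41 with Ankrd23. With genotype means removed, r was 0.89, 0.85 and 0.95 for the 3 genes of Ankrd2, 0.89, 0.86 and 0.93 for those of Ankrd1, and 0.98, 0.97 and 0.99 for those of Ankrd23. Over the 5 arrays without WT 3 it was 0.54, 0.34 and 0.81 for Ankrd2, 1.00, 0.99 and 0.90 for Ankrd1, and 0.97, 0.95 and 0.99 for Ankrd23.

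Other cells that can express Ankrd1 were followed through their markers. Of 7 cardiomyocyte markers, 6 (Nppa, Myl7, Tnni3, Ryr2, Mybpc3 and Nkx2-5) were detected on no array, and Myh6 was detected on all 6, at 9.37 to 9.46 in KO and 9.10 to 9.67 in WT. The summed intensity of 8 smooth muscle markers, of which Cnn1 was detected on no array, was 25257 to 26639 in KO and 28756 to 30859 in WT. Of 7 tested, 1, Myl9, was called lower, beside 0.0372% of all genes called lower and 0.111% higher. That sum mostly reflects the brightest probes, such as Acta2, at 13.19 to 13.33 in KO and 13.69 to 13.77 in WT. Smtn and Myl9 were also lower on every KO array than on any WT array, whereas Myh11, Tagln and Lmod1 overlapped. The summed intensity of 8 fibroblast markers was 22406 to 22833 in KO and 23284 to 25696 in WT, with 0 of 8 called. The smooth muscle list holds Des, which is also a fibre gene and was at 13.54 to 13.69 in KO and 13.32 to 13.42 in WT. The part of these cells in the Ankrd1 levels was not tested. Endothelial markers summed to 5872 to 6515 in KO and 6217 to 7587 in WT, with 0 of 7 called. The fat cell markers that set WT 3 apart gave 1350 to 1706 in KO and 1131 to 6281 in WT, with Retn detected on no array. WT 3 was also the lowest array for Ankrd2, Ankrd23 and the leading Ankrd1 probe. The part of the fat cell signal in those low values was not tested.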

How the data were processed

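The authors deposited, per the file headers, a mean bead intensity, its standard error, the number of beads (listed as another measure) and a detection p-value for each of 45281 probes and each array. Detection p-values came in multiples of 1/936. A further deposited table holds linear intensity values whose sorted columns differed by at most 0.466. The labels name neither scanner nor software. They give Trizol for the RNA extraction and Cy3 for the label.

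Intensities were background-corrected, quantile-normalised and put on a log2 scale (neqc, offset 16; limma 3.58.1, R 4.3.3). Probes with detection p under 0.05 on at least 3 of 6 arrays were kept (19099), and the brightest stood for its gene (13455 genes, 10493 with a symbol). Each array detected 18373 to 19189 probes, and the number of arrays limits the precision. Genotypes were compared by limma's moderated test, fitted over all genes and two-sided, with Benjamini-Hochberg adjustment and a threshold of 0.05, after a check on simulated data. Labels say nothing on separate RNA preparations beyond 1 mouse each.

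The family, the gene lists and the alternatives were chosen with earlier results of these data known. Named were Klhl40, all family probes, up to 4 called members of each list (otherwise the 2 with the smallest p), all tested flanking genes, and the 3 genes most like each member. Other genes were named after their values were seen. Trp53, Xirp1, Stk3, Mef2a and Nfkb1 were not analysed here. The design text states that KO and WT mice were littermates, and the numbers were taken as pairs. Deviations of same-numbered arrays correlated by 0.33, 0.22 and 0.46, although WT 2 correlated slightly more with KO 1 (0.24) than with KO 2. Within a genotype the deviations cancel out, which ties these correlations to each other, so they cannot settle which arrays are pairs.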

Additional observations from a re-analysis of the deposited data

How the results depend on the processing

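The differences of the 3 family genes kept their sign and moved by less than the SD pooled over both genotypes (0.32 for Ankrd2, 0.21 for Ankrd1 and 0.30 for Ankrd23) under every alternative that was run. Leaving out 1 array at a time gave 2.81 to 3.22 for Ankrd2, 1.70 to 1.90 for Ankrd1 and 0.52 to 0.83 for Ankrd23, and the other settings gave 2.82 to 3.03, 1.62 to 1.87 and 0.54 to 0.68. These ranges leave out the dimmer Ankrd1 probe taken alone, at 1.95. The replicate block, the intensity trend and the changed detection filters cannot move the differences of the 3 family genes. Their unchanged values of 3.03, 1.80 and 0.68 are therefore no check. No background correction and the authors' second table gave the same differences, 2.82, 1.62 and 0.54. The replicate block moved the number of genes called by limma to 26, against 20 in the fit as reported.

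The number of genes called was 31 without background correction and 31 in the authors' second table, 41 with an intensity trend and 1 with no filter, and it ran from 1 (without KO 1 or WT 1) to 24 (without WT 3) when 1 array was left out. The count of load response genes was 5 without background correction, in the authors' second table, with detection required on all arrays and with an intensity trend. It was 3 with the replicate block and 0 with no filter, and ran from 0 to 4 when 1 array was left out. Among binding partners 1 gene, Tcap, was called with an intensity trend (limma adjusted p = 0.0277, within 0.0277 to 0.603 across its alternatives), and among flanking genes 1, Hoga1, was called when the dimmer probe stood for each gene. The counts for Yap and Tead genes, upstream factors and other Ankrd genes were 0 under all alternatives run. Small differences changed sign: Hectd2 at -0.16, Mms19 at 0.01 and Cep112 at -0.06 with the dimmer probe; with 1 array left out, Ubtd1 ran from -0.12 to 0.06, Mms19 from -0.13 to 0.04, Cnnm3 from -0.09 (without KO 1) to 0.54 and Ankrd39 from -0.16 (without KO 1) to 0.26. Correlations within genotypes without WT 3 were chosen after seeing the data. They turned to -0.01 for the leading Ankrd1 probe with Ankrd2 and to -0.52 for Hoga1 (brighter probe) with Ankrd2. For the second Ankrd1 probe with Ankrd2, r was 0.44 with WT 3 and 0.53 without it. The causes were not tested. Slide and scan date were not analysed here.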
